A study of Mus musculus with 6 samples.

Results

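The killer cell lectin-like receptors are the proteins encoded by the mouse genes whose symbols start with Klr. Members were taken by symbol alone, through the Entrez number of each row, with pseudogenes left out, and 25 of the 25206 rows of the table met the rule. They comprise 10 Klra genes, 5 Klrb genes, 2 genes each of the Klrc, Klrg and Klri groups, and Klrd1, Klre1, Klrh1 and Klrk1. Expression was measured on 6 single-colour arrays in group 2 innate lymphoid cell (ILC2) lines derived from C57BL/6J mice and grown with IL-2 and IL-33, each at 10 ng/ml. All cells had received a lentiviral CRISPR vector that also encodes GFP and were sorted for GFP at 6 days after transduction. The control group (3 arrays) carried a guide without a target, and the knockout group (3 arrays) carried a guide against Cbfb. Nothing in the labels tells whether replicates are independent cultures. P-values therefore reflect only how far these samples spread, and that spread may be technical.

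Killer cell lectin-like receptors are type II membrane proteins with a C-type lectin-like domain, best known from natural killer (NK) cells, where inhibitory and activating members together set whether the cell attacks. Most of them are encoded side by side in the NK gene complex. ILC2s are lymphocytes without antigen receptors that make type 2 cytokines, and mature ILC2s carry KLRG1, an inhibitory member that binds cadherins. CBFβ, the product of Cbfb, stabilises RUNX transcription factors on DNA, where they bind short sites with the core TGTGGT.

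Because the guide targets the gene of the RUNX partner, promoter windows of members that fell are shown with every match to TGNGGT on either strand in capitals. A window runs from 250 bases before to 50 bases after a gene's start, 5′ to 3′ on the gene's strand, with sequence from RefSeq (build GRCm38.p6). Windows were found for 22 of the 25 members, among them 3 of the 4 that fell.
Klrc1, chr6:129678924-129679223, minus strand: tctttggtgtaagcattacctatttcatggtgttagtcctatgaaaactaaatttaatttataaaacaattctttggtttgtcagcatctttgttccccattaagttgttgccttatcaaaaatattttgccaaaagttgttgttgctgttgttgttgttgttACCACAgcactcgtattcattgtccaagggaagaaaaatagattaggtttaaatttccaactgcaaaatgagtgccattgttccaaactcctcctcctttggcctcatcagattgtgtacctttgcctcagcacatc
Klrk1, chr6:129623815-129624114, minus strand: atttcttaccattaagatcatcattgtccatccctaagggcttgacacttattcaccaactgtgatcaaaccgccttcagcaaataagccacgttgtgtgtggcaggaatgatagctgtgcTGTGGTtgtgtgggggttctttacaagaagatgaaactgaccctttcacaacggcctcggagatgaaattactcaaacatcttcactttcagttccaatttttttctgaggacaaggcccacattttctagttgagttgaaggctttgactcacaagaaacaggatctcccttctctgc
Klra5, chr6:129913175-129913474, minus strand: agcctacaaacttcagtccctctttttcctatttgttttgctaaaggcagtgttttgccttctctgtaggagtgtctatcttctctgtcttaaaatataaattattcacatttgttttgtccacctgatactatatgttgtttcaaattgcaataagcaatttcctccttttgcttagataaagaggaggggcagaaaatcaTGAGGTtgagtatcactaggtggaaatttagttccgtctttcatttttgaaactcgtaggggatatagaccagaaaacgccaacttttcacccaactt
The windows of Klrc1 and Klrk1 each held 1 match, and in both it was the exact core TGTGGT, on the reverse strand in Klrc1 (first base 87 bases before the start) and on the forward strand in Klrk1 (129 bases before). Klra5 also held 1 match, TGAGGT, which is not the exact core, beginning 48 bases before the start. Of the 22 members with a window, 13 held at least 1 match to TGNGGT and 7 the exact core. By window, 15 of their 25 held a match to TGNGGT and 7 the exact core. As background, TGNGGT was present in 45.8% of all 32851 windows and the exact core in 16.8%. The 7 members with the exact core were Klrc1, Klrk1, Klra1, Klrb1a, Klrb1c, Klrc3 and Klre1, of which the first 2 fell and the other 5 did not pass the test. A match describes letters in this window and is not a measured binding site.

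Most of the family read low in these cells and 4 members changed, all of them lower in the knockout. Klrc1, Klrd1, Klra5 and Klrk1 fell by 1.32, 1.24, 0.90 and 0.85 on the log2 scale, and no member rose. At an unadjusted p under 0.05 too, limma gave 4 members lower and 0 higher, where 2748 of all 25206 rows were lower and 3032 higher. A member was called changed at an adjusted p of 0.05 or lower in limma, a linear model with moderated variances fitted to all rows, after Benjamini-Hochberg adjustment over all rows. These 4 are 16.0% of the 25 members, where 4.24% of all rows were called lower and 5.51% higher (9.75% in either direction). The median change was -0.047 over the 25 members and -0.007 over all rows. For these 4 members every control array read above every knockout array, and for the other 21 the groups overlapped (over all rows 27.5% had no overlap, 13.4% with the control higher). Whether fewer cells carried a transcript or each cell carried less of it cannot be told apart in bulk RNA.

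Klrd1 and Klrc1 encode CD94 and NKG2A, which pair into an inhibitory receptor for the nonclassical class I molecule Qa-1. Klrc1 read 4.86, 5.28 and 5.40 in control replicates 1, 2 and 3 and 3.87, 3.73 and 3.99 in the knockout replicates. Its mean went from 5.18 ± 0.28 to 3.86 ± 0.13 (SD, n = 3 arrays per group), or 2.49-fold lower, with a 95% interval of the log2 change from -1.65 to -0.98 (limma adjusted p = 0.0015). Even the lowest control array stood above the highest knockout array by more than either group's SD. Klrd1 read 4.04, 4.71 and 4.92 in the control and 3.34, 3.12 and 3.48 in the knockout. Its mean went from 4.56 ± 0.46 to 3.31 ± 0.18, or 2.37-fold lower (interval -1.74 to -0.75, limma adjusted p = 0.00995). Both partners had their lowest control value in replicate 1 and their lowest knockout value in replicate 2. Klrc3, which encodes NKG2E, another possible partner of CD94, read 1.32 ± 0.29 and 1.33 ± 0.19 in control and knockout (interval of the change -0.36 to 0.37).

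Klrk1 encodes NKG2D, an activating receptor for stress-induced ligands that signals through the adaptor DAP10. Its control values were 3.71, 4.13 and 3.69, and its knockout values 3.13, 3.07 and 2.77. The mean went from 3.84 ± 0.25 to 2.99 ± 0.19, or 1.81-fold lower (interval -1.19 to -0.51, limma adjusted p = 0.0102). All 3 knockout arrays, and the knockout mean of Klrd1 too, lay under 3.6, the median of all group means in the table. The table has no detection calls, 3.6 is no detection limit, and differences of low values can be understated.

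The Klra genes encode the Ly49 receptors, most of which bind classical class I molecules. Klra5, the gene of Ly49E, an inhibitory member known from fetal NK cells, read 5.84, 5.32 and 5.52 in the control and 4.72, 4.17 and 5.08 in the knockout. Its mean went from 5.56 ± 0.26 to 4.66 ± 0.46, or 1.87-fold lower (interval -1.43 to -0.38, limma adjusted p = 0.0437). The groups were separated by a gap smaller than the SD of either, between 5.32 in control replicate 2 and 5.08 in knockout replicate 3. Of 6 fits with 1 array left out, 5 lost the call, with adjusted p between 0.0236 and 0.137 over the 6. It was kept without knockout replicate 3 alone. Klrc1, Klrd1 and Klrk1 each passed in all 6 of these fits. In an ordinary test without moderated variances Klrc1 passed (adjusted p = 0.0441), and Klrd1 (adjusted p = 0.111), Klrk1 (adjusted p = 0.0967) and Klra5 (adjusted p = 0.216) did not.

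**Figure D1:**
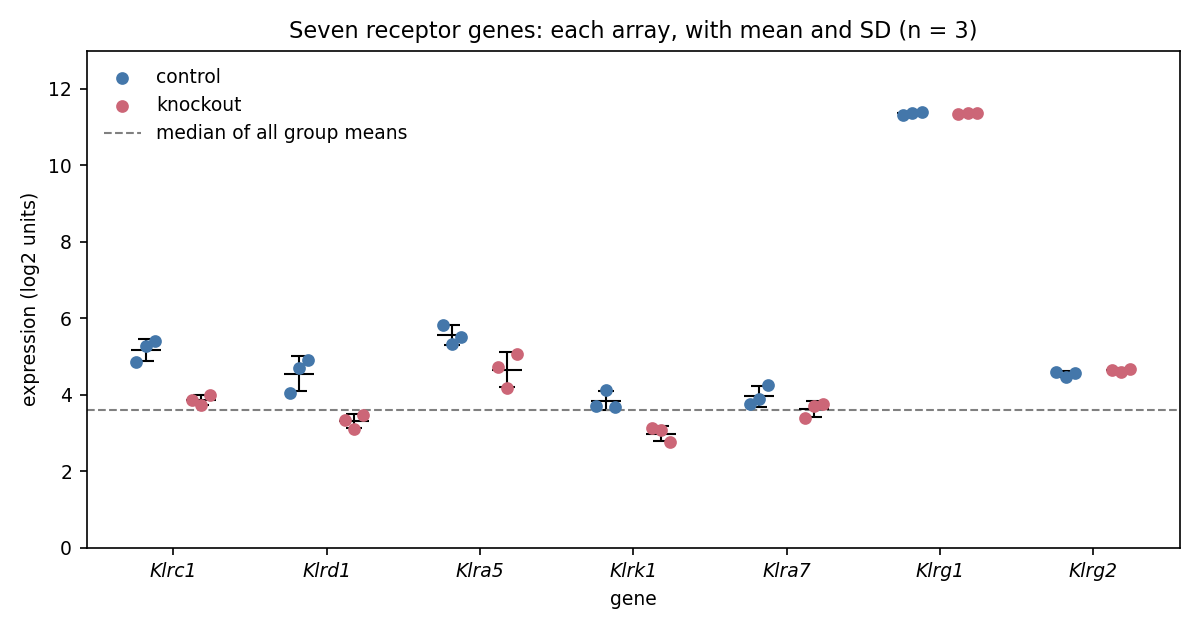
Expression on a log2 scale (vertical axis) of the 7 receptor genes whose higher group mean exceeds 3.6, with 1 point per array, control in blue and knockout in red, and the mean with its SD in black. The points of Klrc1, Klrd1, Klra5 and Klrk1 do not overlap between the groups, whereas those of Klra7, Klrg1 and Klrg2 do.

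Klra7, the gene of Ly49G, an inhibitory receptor, read 3.75, 3.88 and 4.27 in the control and 3.39, 3.72 and 3.77 in the knockout. The lowest control array lay under the highest knockout array, and the difference of -0.34 did not pass (interval -0.70 to 0.02, limma adjusted p = 0.246) and was -0.19 without control replicate 3. The other 8 Klra members read between 1.26 and 2.40 as control means and between 1.27 and 2.49 as knockout means. Their differences ran from -0.25 for Klra17 to 0.22 for Klra3, with Klra9, Klra6, Klra1, Klra4, Klra2 and Klra10 between them, and none passed. The pseudogene row Klra13-ps, outside the rule and singled out after its values were seen, read 6.47 ± 0.31 and 6.40 ± 0.03, a difference of -0.06 (limma adjusted p = 0.86) that turned to 0.05 without control replicate 1. Klra genes are close relatives whose transcripts can hybridise to each other's probes, so each Klra value is uncertain as to which gene gave the signal.

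Their relatedness shows in the promoter windows too, and those of Klra6 and of Klra7 are set beside that of Klra5 above. Klra7 has 2 windows, of which the one that shares more with Klra5 is shown.
Klra6, chr6:130026905-130027204, minus strand: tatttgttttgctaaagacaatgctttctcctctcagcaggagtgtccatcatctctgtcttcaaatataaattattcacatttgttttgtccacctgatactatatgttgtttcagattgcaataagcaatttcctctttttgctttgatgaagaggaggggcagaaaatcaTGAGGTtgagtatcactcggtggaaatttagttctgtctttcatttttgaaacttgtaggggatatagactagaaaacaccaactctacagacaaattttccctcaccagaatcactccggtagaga
Klra7, chr6:130233273-130233572, minus strand: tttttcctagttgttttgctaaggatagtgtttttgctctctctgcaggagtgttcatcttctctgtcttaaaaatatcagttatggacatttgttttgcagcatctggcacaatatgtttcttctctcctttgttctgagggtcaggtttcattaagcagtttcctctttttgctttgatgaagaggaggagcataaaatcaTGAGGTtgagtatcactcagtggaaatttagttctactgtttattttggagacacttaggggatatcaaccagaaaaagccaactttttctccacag
The longest identical run that Klra5 shared with another member was 53 bases with Klra6, followed by 38 bases with Klra3 and 31 bases with Klra9, and it was 24 bases with the Klra7 window shown. The match TGAGGT with 9 bases on each side, agaaaatcaTGAGGTtgagtatca, stood in the windows of Klra5, Klra6 and Klra3 and in no other of the 32851. The match began 48 bases before the start in Klra5 and 77 bases before it in Klra6, but 23 bases after it in Klra3. Klra5 fell, whereas Klra6 differed by -0.07 (limma adjusted p = 0.782) and Klra3 by 0.22 (limma adjusted p = 0.223). Klra6 read 1.34 and 1.27 and Klra3 1.26 and 1.47 in control and knockout. At such low values a fall would be hard to see, and the differences between Klra5 and its relatives were not tested.

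Klrg1 encodes the inhibitory receptor that marks mature ILC2s, and it had the smallest difference of the 7 members above 3.6. It read 11.33, 11.37 and 11.40 in the control and 11.35, 11.37 and 11.36 in the knockout. The groups lay on top of each other, with a difference of -0.01 (interval -0.18 to 0.17, limma adjusted p = 0.976) that turned to 0.01 without control replicate 3. The highest value of the whole table is 12.51, and signals near the top can saturate, which would hide a difference. Klrg2, a relative of less known function, read 4.61, 4.46 and 4.56 in the control and 4.66, 4.61 and 4.69 in the knockout. Its difference of 0.11 did not pass (interval -0.08 to 0.30, limma adjusted p = 0.505).

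The Klrb genes encode the NKR-P1 receptors, which bind Clec2 family proteins and include the NK1.1 antigen, the product of Klrb1c. None of the 5 passed, and their differences ran from -0.08 for Klrb1a to 0.34 for Klrb1c, with Klrb1f, Klrb1 and Klrb1b in between. Klrb1c read 3.52, 3.03 and 3.14 in the control and 3.54, 4.01 and 3.17 in the knockout. Knockout replicate 2 stood above the other 5 arrays, the groups overlapped, and the interval ran from -0.15 to 0.83 (limma adjusted p = 0.407). The remaining members are Klrh1 and the trio of Klre1, Klri1 and Klri2, of which the KLRE1 protein can pair with either of the others. They differed by -0.26, -0.01, -0.15 and -0.11 for Klre1, Klri1, Klri2 and Klrh1, and none passed. In all, 18 members had both group means under 3.6, and their differences lay between -0.26 and 0.34.

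**Figure D2:**
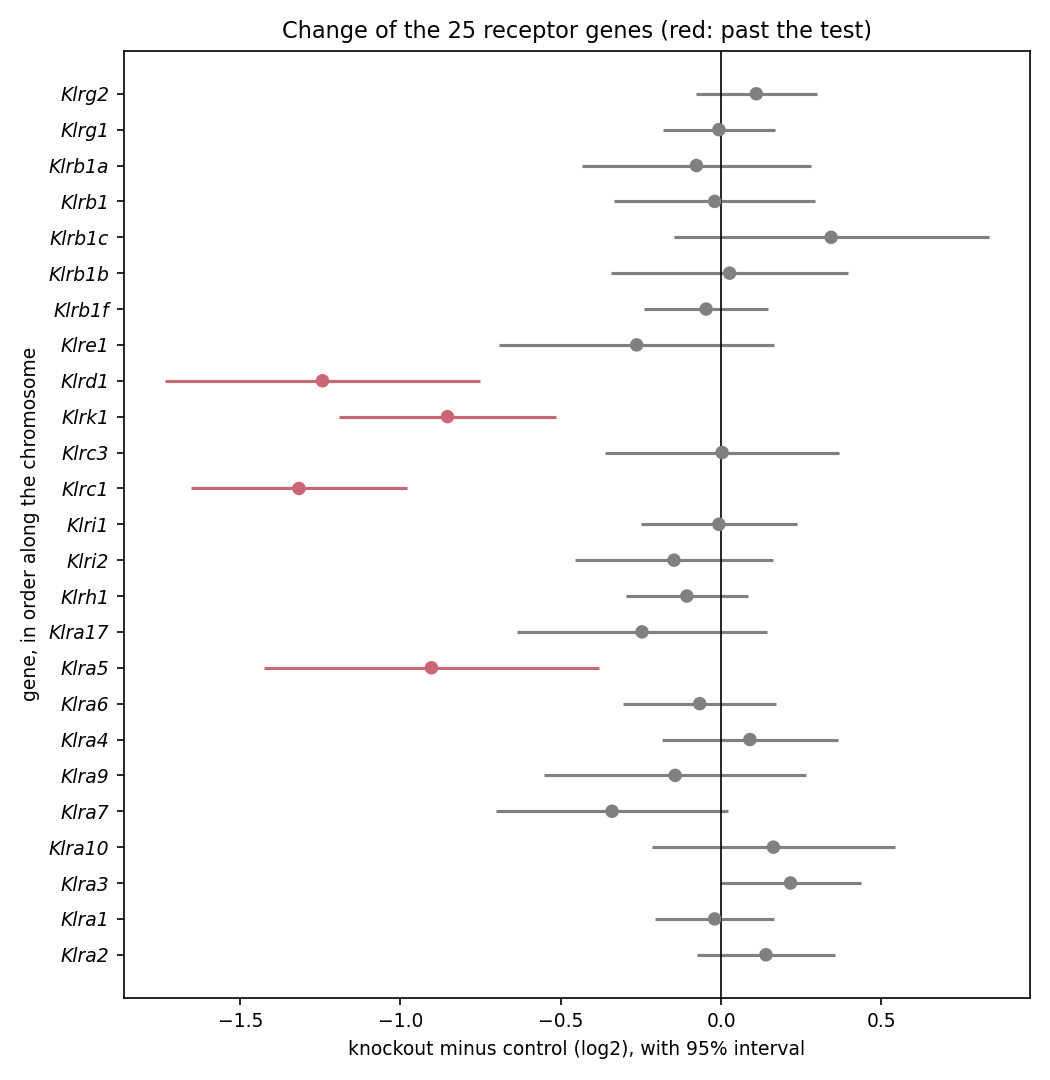
Change of each of the 25 receptor genes as knockout minus control on a log2 scale (horizontal axis), with the unadjusted 95% interval as a line, in order along chromosome 6. The 4 members past the test, Klrd1, Klrk1, Klrc1 and Klra5, are drawn in red and lie between -1.32 and -0.85, and the other 21 lie between -0.34 and 0.34.

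The place of the members on chromosome 6 was read from a RefSeq gene table, as order only. In the complex, taken as the run of members with gaps under 1 Mb that holds Klrd1, 23 members and 26 other rows stood in one stretch, and Klrg1 and Klrg2 lay outside it. Klrd1, Klrk1, Klrc3 and Klrc1 are successive rows there, and 3 of these 4 fell. This run was picked after the values were seen. Klre1 and Mir680-1, the rows on either side of it, did not pass (limma adjusted p = 0.477 and 0.292). Over the whole complex 7 of 49 rows fell and 0 rose, against 4.24% and 5.51% of all rows. Of the 26 other rows, which include both Klra pseudogenes, 3 fell and 0 rose (11.5% lower, against 4.24% lower and 5.51% higher of all rows), with a median change of -0.06. Cd69, which encodes an early activation antigen of lymphocytes with a lectin-like domain of the same kind, went from 9.77 ± 0.20 to 9.01 ± 0.08 (limma adjusted p = 0.00574), a call lost without moderation (adjusted p = 0.06; 0.000182 to 0.06 over 14 alternatives). Gabarapl1, an autophagy gene that is no lectin-like receptor and lies beside Klre1, went from 6.39 ± 0.05 to 5.63 ± 0.13 (limma adjusted p = 0.00235). Clec12a, an inhibitory receptor gene of myeloid cells, read 1.88 ± 0.06 in the control and passed with a difference of -0.37 (limma adjusted p = 0.0265), which 5 of 6 fits with 1 array left out lost, all but that without control replicate 1.

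**Figure D3:**
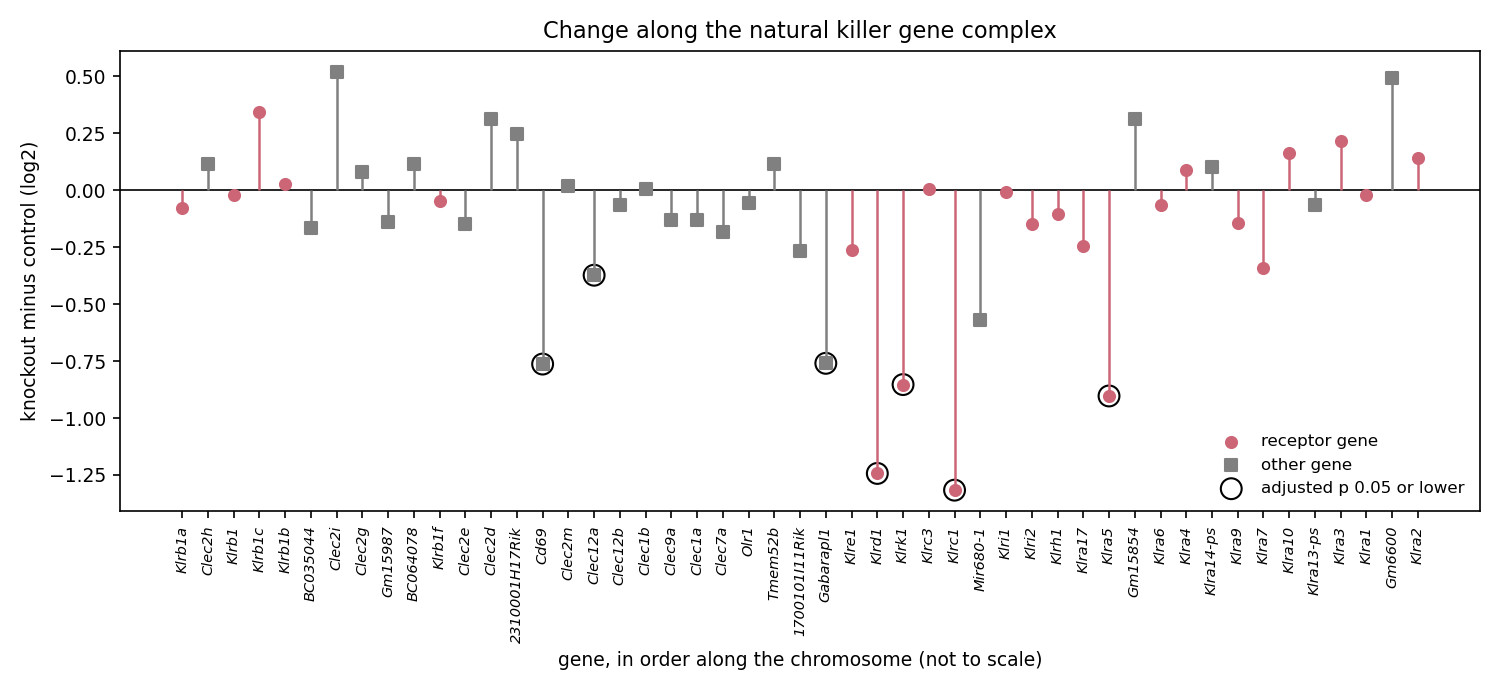
Knockout minus control on a log2 scale (vertical axis) for the 49 rows of the NK gene complex in their order on the chromosome, not to scale, with receptor genes as red circles and other genes as grey squares. Rings mark the 7 rows past the test, all of them lower, and the 42 other rows did not pass.

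Of 23 listed ligands of these receptors, 6 were not analysed here, several NKG2D ligands among them. None of the 17 measured in the same cells passed the test (0 fell and 0 rose in limma, against 4.24% and 5.51% of all rows). Their median change was 0.087. At an unadjusted p under 0.05 in limma 1 was lower and 3 higher, where 2748 of all 25206 rows were lower and 3032 higher. Clec2d, whose product is bound by the NKR-P1B receptor, differed by 0.31 (limma adjusted p = 0.0749), and its relative Clec2i by 0.52 (limma adjusted p = 0.195). The cadherin gene Cdh4 differed by -0.33 and Ulbp1, the gene of an NKG2D ligand, by 0.35 (limma adjusted p = 0.119 and 0.21). Clec2d passed in 3 of 14 alternatives and Clec2i in 1, without knockout replicate 2. H2-T23, the gene of Qa-1, which CD94 and NKG2A bind, read 7.89 ± 0.17 and 8.05 ± 0.16 (limma adjusted p = 0.501); it was singled out for that role.

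Among 19 measured adaptors and proximal signalling genes that act below such receptors, 6 fell and 1 rose (31.6% and 5.26%, against 4.24% and 5.51% of all rows), with a median change of -0.25. Plcg2, a phospholipase that generates calcium signals, fell from 7.63 ± 0.01 to 6.62 ± 0.11 (limma adjusted p = 0.000514). Sh2d1b1, which encodes the NK cell adaptor EAT-2, read 4.37, 5.60 and 5.02 in the control and 3.86, 3.65 and 2.59 in the knockout. It fell by 1.63 (limma adjusted p = 0.0328), a call that was lost without control replicate 2, control replicate 3, knockout replicate 2 or knockout replicate 3 (adjusted p 0.0335 to 0.0995 over the 6 such fits) and without moderation (adjusted p = 0.203). Cd247, the signalling chain CD3ζ, fell by 0.50 and Lat2, a membrane scaffold, fell by 0.47 (limma adjusted p = 0.0122 and 0.0103). The call of Cd247 was lost without control replicate 2 (adjusted p = 0.0501; 0.0176 to 0.0501 over the 6 fits) and without moderation (adjusted p = 0.0522).

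The adaptors that NKG2D and the activating Ly49 receptors use were singled out for that role after the values were seen. Hcst, the gene of DAP10, read 5.91, 5.92 and 5.97 in the control and 5.88, 6.09 and 5.92 in the knockout, a difference of 0.03 (interval -0.17 to 0.23, limma adjusted p = 0.895) that turned to -0.04 when the columns were quantile normalised again. Tyrobp, the gene of DAP12, read 2.64 ± 0.25 and 2.66 ± 0.29 (interval -0.36 to 0.42), and Fcer1g, an adaptor of other NK receptors such as NK1.1, differed by -0.42 without passing (limma adjusted p = 0.113). The sign of the Tyrobp difference turned in 4 of 6 fits with 1 array left out.

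**Figure D4:**
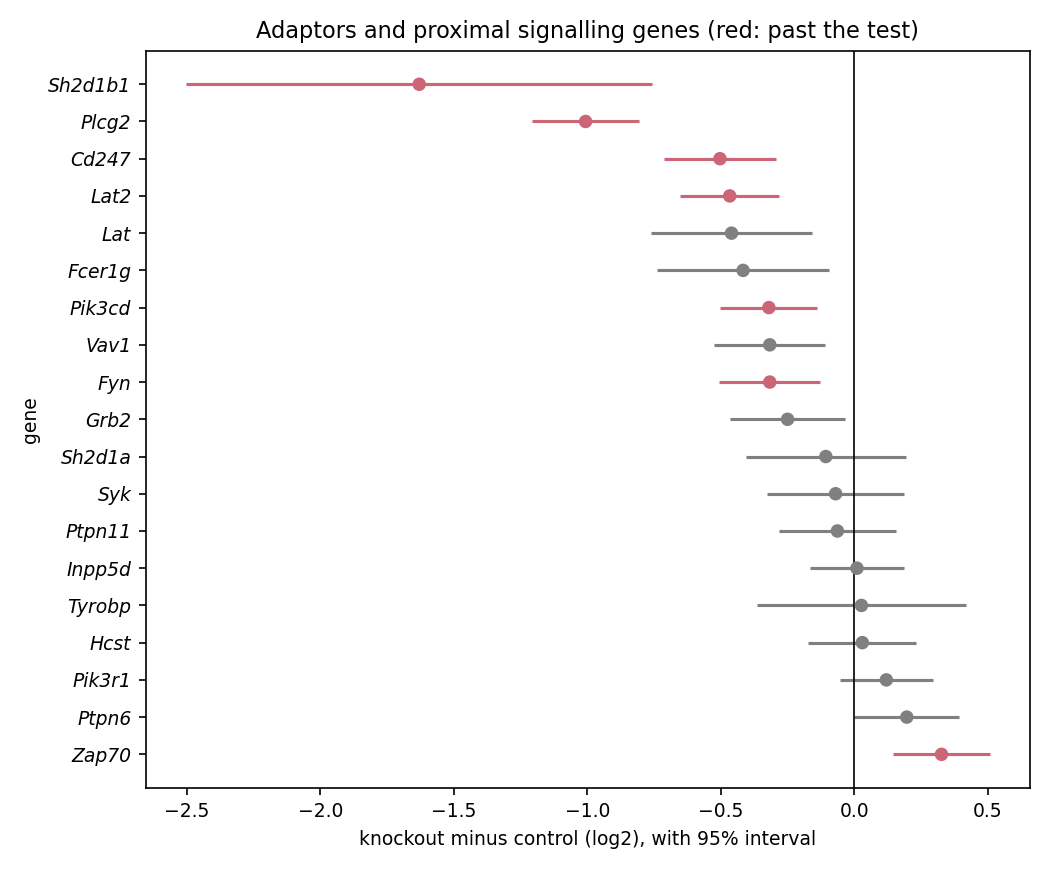
Change of the 19 adaptors and proximal signalling genes as knockout minus control on a log2 scale (horizontal axis), with the unadjusted 95% interval as a line and genes past the test in red. Sh2d1b1 and Plcg2 lie furthest below 0, at -1.63 and -1.01, and Zap70 is the 1 gene past the test above 0, at 0.33, a call that every fit with 1 array left out lost.

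Among 20 other NK cell receptors and identity genes 5 fell and 1 rose, with a median change of -0.238 (over all rows 4.24% fell and 5.51% rose). Nkg7, a cytotoxic granule gene, went from 5.48 ± 0.08 to 3.95 ± 0.15, Tigit, an inhibitory receptor gene, from 8.54 ± 0.06 to 7.70 ± 0.12, and Il2rb, a chain of the IL-2 receptor, from 10.60 ± 0.02 to 10.15 ± 0.03. The chemokine gene Ccl5 rose from 3.26 ± 0.09 to 4.07 ± 0.12 (limma adjusted p between 0.000155 and 0.00891 for these 4). Of 10 NK cell markers 3 fell. The summed signal of the 10 on a linear scale was 4201 to 4568 in the control and 3494 to 3755 in the knockout arrays. Gzma (means 11.11 and 10.94 in control and knockout, limma adjusted p = 0.382) and Il2rb read highest and weigh most in this sum. The markers that read under 3.6 in both groups add little to it. The 3 that fell were Nkg7, Il2rb and Prf1, the gene of perforin, which went from 8.28 ± 0.08 to 7.78 ± 0.12 (limma adjusted p = 0.0154). The Prf1 call was lost without control replicate 2 (adjusted p = 0.0655), without control replicate 3 (adjusted p = 0.0569) and without moderation (adjusted p = 0.064; 0.00114 to 0.0655 over 14 alternatives). Of the 7 that did not pass, Ncr1 (2.41 ± 0.29 and 2.48 ± 0.13), Eomes (2.55 ± 0.25 and 2.24 ± 0.35), Tbx21 and Cma1 read under 3.6 in both groups, and Gzma, Itga2 and S1pr5 read above it. The difference of Ncr1 turned to -0.10 without control replicate 3. The part of NK cell markers in the falls of the receptor genes was not tested.

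The counts of markers of ILC2s and other cell types stand against the same 4.24% lower and 5.51% higher of all rows. Of 10 listed ILC2 markers 2 were not analysed here, and of the 8 measured 3 fell and 1 rose (summed signal 15330 to 15499 in the control and 12914 to 13468 in the knockout). Icos, Il7r and Il5 fell by 0.78, 0.56 and 0.33 (limma adjusted p = 0.0012, 0.0097 and 0.0349). Rora rose from 3.32 ± 0.35 to 5.53 ± 0.29 (limma adjusted p = 0.00056). Gata3, Il13, Il2ra and Arg1 did not pass. Il13 and Il2ra read highest and weigh most in the sum (limma adjusted p = 0.149 and 0.132). Among 10 T cell markers 1 fell, Trac, and the summed signal was 162 to 171 and 137 to 146. At an unadjusted p under 0.05 in limma 4 of them were lower and 0 higher, where 2748 of all 25206 rows were lower. Of the 10 T cell markers 7 read under 3.6 in both groups. In limma 0 of 4 B cell markers passed, and 1 was higher at an unadjusted p under 0.05 (21 to 23 and 23 to 25). At that p 3032 of all 25206 rows were higher. Of 5 macrophage and dendritic cell markers 1 fell, Itgax, from 5.81 ± 0.12 to 4.77 ± 0.17 (126 to 138 and 89 to 112). Of 5 mast cell markers 1 fell, Cpa3, from 6.87 ± 0.26 to 3.96 ± 0.14 (129 to 170 and 37 to 48). The other 4 mast cell markers read under 3.6 in both groups and did not pass, so the mast cell sum mostly follows Cpa3. The targeted gene Cbfb read 8.65 ± 0.11 and 7.83 ± 0.12, 1.77-fold lower in the knockout (limma adjusted p = 0.00205). The array value tells nothing of the edit itself or of the protein. Runx1 rose 2.42-fold (limma adjusted p = 0.00121) and Runx3 differed by 0.24 (limma adjusted p = 0.198).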

How the data were processed

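Total RNA was hybridised to single-colour arrays, per the labels. The deposited table holds log2 expression values, 1 row per Entrez gene. RMA and limma 3.14.4 are listed in the submitters' processing notes, with no role or order. The log2 scale was read from the values (0.66 to 12.51), whose medians per array were 3.57 to 3.63. Such normalisation hides a shift shared by most genes. Arrays of 1 group correlated at 0.9946 to 0.996 across rows, and arrays of different groups at 0.988 to 0.9908. Precision is set by the small number of arrays.

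Groups came from the labels. Of the 25206 rows 23185 had 1 gene symbol, taken through the platform's annotation table and RefSeq (GRCm38.p6), 0 had several and 2021 none. Unnamed genes, Runx2 among them, and the receptor genes Klrc2, Klra8, Klra16 and Klra23 were not analysed here.

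Values were used as deposited. The test was limma 3.58.1 in R 4.3.3, knockout minus control, two-sided, default prior (4.1 prior degrees of freedom), with Benjamini-Hochberg adjustment over all rows. It was tested on simulated data with known log2 changes of 0.5, 1 and 2 in 67, 67 and 66 of 25206 rows. It recovered 31.3% of changes of 0.5, 80.6% of changes of 1 and 97% of changes of 2. Of its 145 calls there 6 were false. The changed rows were a smaller share than the 9.75% called in the real data, so these rates need not hold for the latter. Gene lists were described by counts and medians. Named were members past the test, with a higher group mean above 3.6, or with an adjusted p of 0.1 or lower, and up to 4 members of each other list with the smallest adjusted p. Others were singled out after their values were seen: Hcst, Tyrobp, Fcer1g, H2-T23, Klra13-ps, Klra6, Klra3, Klrb1c, Klrc3, Klre1, Mir680-1, Ncr1, Eomes, Prf1, Tbx21, Cma1, Gzma, Itga2, S1pr5, Zap70, Trac, Itgax, Cpa3, Icos, Il7r, Il5, Rora, Gata3, Il13, Il2ra and Arg1. Members and lists were chosen with earlier results of these data known. The alternatives are given in the closing section.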

Additional observations from a re-analysis of the deposited data

How the results depend on the processing

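The 4 falls among the receptor genes were also called with the columns quantile normalised again or centred, among rows with 1 gene symbol, and with array weights or a trended and robust prior. Without moderation 1 member passed, Klrc1 (adjusted p = 0.0441), and at a threshold of 0.01 on the adjusted p 2 did. Klrk1 could not be tested among rows above the median row mean, where the 3 others passed. Leaving out 1 array gave 3 to 4 members. No member rose in any alternative. Over all rows the count of 2457 became 1254 without moderation, 966 at the threshold of 0.01, and 1307 to 1837 with 1 array left out. It rose to 3516 with a trended and robust prior, 3562 at a threshold of 0.10 and 3517 among the 12603 rows above the median row mean. The fits with 1 array left out that moved the count by over 1.5 times were those without control replicate 2 (1307) or 3 (1565), or knockout replicate 2 (1478) or 3 (1517). Small differences that did not pass changed sign: with 1 array left out, the log2 change ran for Klrg1 from -0.025 to 0.01, for Hcst from -0.033 to 0.072, for Tyrobp from -0.082 to 0.19, for Klra13-ps from -0.24 to 0.053, for Ncr1 from -0.10 to 0.15, for Klra6 from -0.12 to 0.01 and for Klrc3 from -0.16 to 0.12. Sign changes under another scaling or weighting were Hcst -0.039 after renewed quantile normalisation, Klrc3 -0.0067 after renewed quantile normalisation, Klrc3 -0.071 with array weights.

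The replicate numbers were not shown to pair the samples: deviations from the group means correlated at 0.0249, 0.00669 and 0.0539 between arrays of the same number. With the replicate number as a block, 1745 rows and the same 4 members were called (adjusted p 0.00569 to 0.0287 for the members), and Clec12a and Zap70 were lost (adjusted p = 0.0665 and 0.0927). Arrays without detection calls or background values limit what can be said of the 18 members that read under 3.6.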
